A study of Mus musculus with 28 samples.

Results

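Large-scale copy number breakpoints are the places along an autosome where the copy number of a tumour stepped from one level to another between long stretches of DNA. Within each tumour's segmented profile, segments under 1 Mb were set aside, and each neighbouring pair of the remaining segments whose mean log2 copy ratio differed by 0.3 or more gave 1 breakpoint, located to the interval between the end of one segment and the start of the next. This gave 189 breakpoints among 1171 neighbouring pairs (16.1%), in 22 of 24 tumours and on 17 of 19 autosomes. The regions were thus chosen by their measured steps in segment mean, so step sizes and the positions shared between tumours are descriptions with no test.

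The profiles came from exome sequencing of mouse tumours collected when the animals reached end point. All animals were on a mixed background, labelled as 50% BALB/C and 50% C57BL6, and all carried a null allele of p53 opposite a second germline allele. That allele was AD, which gives a dimeric p53 (genotype p53 AD/-), or RP, which gives a monomeric p53 (genotype p53 RP/-). The age of the animals is not given in the sources used here. Thymic lymphoma, a tumour of developing T cells, was sampled in 7 AD and 7 RP tumours, and sarcoma, which arises in connective tissue, in 5 AD and 5 RP tumours. Ear samples of 4 of these animals were not analysed here. Each tumour has an identifier of its own in the titles and counts as 1 replicate.

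p53 halts the cell cycle or kills the cell after DNA damage, and it binds DNA as a tetramer. A breakpoint within an autosome can mark a DNA break that was joined in a new way, whereas the gain or loss of a whole autosome without an internal step arises when a chromosome is distributed unequally at cell division. Tandem families of closely related genes, such as vomeronasal receptors, major urinary proteins, Skint genes and zinc finger genes, are places where copies are gained or lost in the germline, and inbred mouse strains differ in their number of copies there.

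Sequence shows how alike gene copies can be at the most often broken places, with the closest pairs chosen for display. The promoters of the vomeronasal receptor genes Vmn1r242 (chr7:20233779-20234078, minus strand) and Vmn1r111 (chr7:20703167-20703466, minus strand) lie in the chromosome 7 region that was broken most often, in 11 of 24 tumours, and those of Zfp600 (chr4:146156577-146156876, plus strand) and Rex2 (chr4:147021600-147021899, plus strand) lie in a broken region of distal chromosome 4. Each sequence is 300 bases, from 250 before the gene's start to 50 after it, from RefSeq on GRCm38.p6, written 5′ to 3′, with capitals at the bases that differ within a pair.
Vmn1r242: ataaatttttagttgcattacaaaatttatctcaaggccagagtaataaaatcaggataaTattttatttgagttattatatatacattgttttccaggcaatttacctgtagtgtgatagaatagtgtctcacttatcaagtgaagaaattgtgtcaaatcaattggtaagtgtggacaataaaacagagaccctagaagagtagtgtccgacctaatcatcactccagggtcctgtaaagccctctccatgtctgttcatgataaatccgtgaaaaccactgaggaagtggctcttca
Vmn1r111: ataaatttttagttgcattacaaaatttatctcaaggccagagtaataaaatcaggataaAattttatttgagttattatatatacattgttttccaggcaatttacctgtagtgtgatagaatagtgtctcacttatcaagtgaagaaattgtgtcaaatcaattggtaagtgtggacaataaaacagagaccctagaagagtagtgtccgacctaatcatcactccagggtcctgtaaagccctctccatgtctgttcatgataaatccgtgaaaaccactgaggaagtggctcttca
Zfp600: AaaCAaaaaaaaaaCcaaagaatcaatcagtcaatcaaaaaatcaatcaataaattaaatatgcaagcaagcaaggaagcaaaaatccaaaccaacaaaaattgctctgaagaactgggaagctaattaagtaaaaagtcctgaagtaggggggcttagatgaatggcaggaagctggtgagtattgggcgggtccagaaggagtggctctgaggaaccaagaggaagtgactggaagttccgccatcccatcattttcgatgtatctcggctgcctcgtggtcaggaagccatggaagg
Rex2: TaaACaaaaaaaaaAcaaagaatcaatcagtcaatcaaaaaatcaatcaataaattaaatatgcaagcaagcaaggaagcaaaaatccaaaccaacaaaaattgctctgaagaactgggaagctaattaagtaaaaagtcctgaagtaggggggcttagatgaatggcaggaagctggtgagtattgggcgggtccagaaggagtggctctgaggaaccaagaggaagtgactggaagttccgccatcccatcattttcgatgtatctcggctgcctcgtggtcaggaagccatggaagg
The vomeronasal pair differed at 1 base (99.7% identical), and the zinc finger pair differed at 4 bases (98.7% identical).

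The copy ratio stepped up, reading along the chromosome, at 92 breakpoints and down at 97. The step in log2 copy ratio ran from 0.306 to 3.53, with a median of 0.52, and the interval that holds the break ran from 0.26 kb to 4515 kb, with a median of 64.5 kb. Any segments under 1 Mb inside an interval were set aside, so the flanking levels do not give the level within it. The 3 smallest steps that counted were 0.306 in RP thymic lymphoma 5, 0.307 in RP sarcoma 2 and 0.3075 in RP thymic lymphoma 4. The 3 largest that did not count were 0.2987, 0.2981 and 0.2936. Many of the breakpoints rested on few markers, which are the capture targets or windows that the copy ratio is averaged over. At 123 of the 189 (65.1%), at least 1 of the flanking segments had fewer than 100 markers, and at 25 fewer than 20. A total of 114 breakpoints (60.3%) were the edges of 57 islands. An island is a segment shorter than both neighbours that steps away from both in the same direction, with the neighbours less than 0.3 apart. Of the 57 islands, 43 were losses, in 15 tumours, with a median length of 1.65 Mb and a median of -0.49 in log2 copy ratio relative to their neighbours. The other 14 were gains, in 10 tumours, with a median length of 1.38 Mb and a median of 1.09. Loss and gain of an island are relative to its neighbours. A lost island of chromosome 4 in RP thymic lymphoma 2 lay at 0.054, between segments at 0.441 and 0.453.

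**Figure D1:**
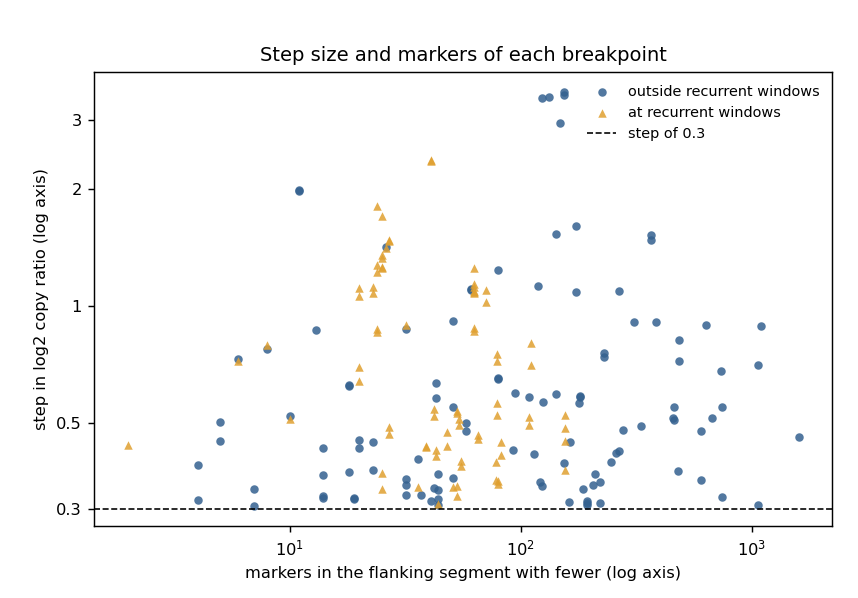
Each of the 189 breakpoints by the markers in the flanking segment that has fewer (x, log axis) and by its step in log2 copy ratio (y, log axis). Triangles, breakpoints at windows broken in 3 or more tumours, lie mostly below 100 markers (89.9% of them), while 47.3% of the others (circles) do; the dashed line is the step of 0.3 that defines a breakpoint.

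The breakpoints were shared unevenly. Of 2413 autosomal windows of 1 Mb, 175 (7.25%) were broken in at least 1 tumour and 17 (0.705%) in 3 or more. Those 17 windows formed 8 loci, all on chromosomes 2, 4, 7 and 12. They held 79 breakpoints (41.8%) in 20 tumours. The other 110 breakpoints lay in 19 tumours. Exactly the same interval recurred in another tumour for 59.5% of the 79 and for 5.45% of the 110. That contrast follows in part from the choice of windows, since an interval shared by 3 or more tumours always falls among the 79. Genes of the Olfr, Vmn, Zfp, Skint and Mup families, chosen with earlier results of these data in view, numbered 5 or more in 8 of the 17 windows (47.1%), in 7.59% of windows broken in 1 or 2 tumours and in 3.75% of those broken in none. A promoter at least 90% identical to that of another gene within 2 Mb was found for 84 of 204 genes in the 17 windows (41.2%), for 5.92% of genes in windows broken in 1 or 2 tumours, for 2.02% in unbroken windows and for 2.73% over all windows. Promoters were compared base by base at equal positions, without alignment. Alike promoters shifted by an inserted or deleted base, or by a different annotated start, can thus be missed by these counts. The Vmn1r locus of chromosome 7 carried most of that share: counted over whole loci, such promoters numbered 75 of 85 there, 9 of 29 at the chromosome 2 Zfp locus, 2 of 26 at the Mup locus, 0 of 16 at the Skint locus, 2 of 15 at the distal chromosome 4 Zfp locus and 0 of 13 on chromosome 12. The other 2 loci, both on chromosome 7, had 1 of 2 and 6 of 21.

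**Figure D2:**
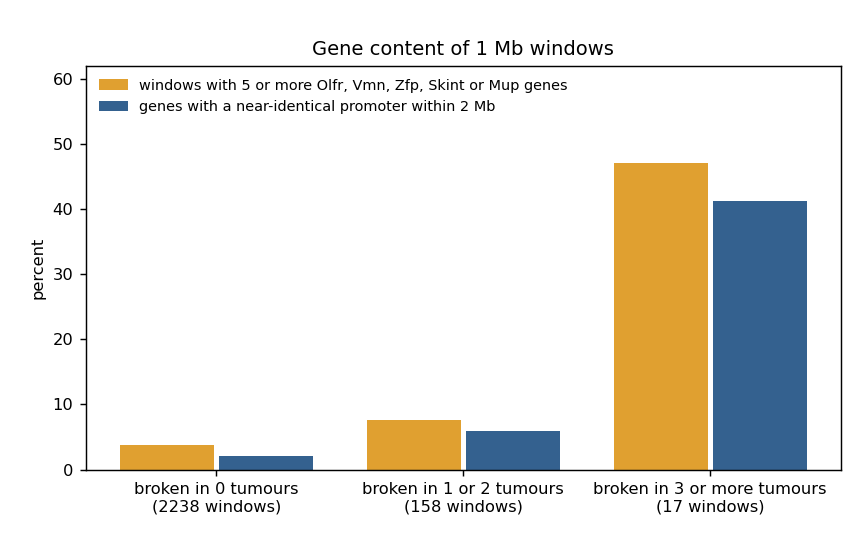
Gene content of 1 Mb autosomal windows by the number of tumours broken there, in percent. Windows broken in 3 or more tumours stand at 47.1% for 5 or more family genes and at 41.2% for genes with a near-identical promoter nearby; the bars for the other windows lie between 2.02% and 7.59%.

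The vomeronasal receptor cluster on chromosome 7 (chr7:20049423-23437888) was the most often broken locus, with 24 breakpoints in 11 tumours. These were 3 AD and 4 RP thymic lymphomas, 2 AD and 2 RP sarcomas. The locus holds 88 protein-coding genes, of which 70 are Vmn1r genes, receptors that detect pheromones. Relative to the rest of chromosome 7, its log2 copy ratio ran from -2.13 in AD thymic lymphoma 7 to 0.51 (median 0.04) in AD thymic lymphomas and from -0.37 to 0.81 (median 0.02) in RP thymic lymphomas. The thymic lymphomas were thus split between gain and loss, and the 2 genotypes overlapped. In sarcomas the locus lay mostly below or level with its chromosome: AD sarcomas 1 to 5 had 0.00, -0.59, -1.07, -1.01 and 0.00, and RP sarcomas 1 to 5 had -0.33, -0.74, 0.03, -0.69 and 0.12. The interval chr7:20101157-20167459, with Vmn1r91, Vmn1r93 and Vmn1r240, was broken in exactly the same way in 4 thymic lymphomas, AD 5 and 7 and RP 1 and 6. On the distal side, Nlrp4e, an NLR family gene, lay in the intervals of 5 tumours, AD sarcomas 3 and 4 among them.

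On chromosome 2 the break fell in AD sarcomas. The locus at chr2:175175749-178403657, with 31 protein-coding genes of which 9 are Zfp genes, had 9 breakpoints in 5 tumours, AD sarcomas 1 to 4 and RP thymic lymphoma 5. Its level relative to the rest of chromosome 2 was 0.88, 0.73, 1.03, 0.93 and 0.01 in AD sarcomas 1 to 5, and between 0.00 and 0.03 in the 5 RP sarcomas. AD sarcomas 1 to 4 stood apart from the other sarcomas, and AD sarcoma 5, whose animal also gave an ear sample, lay among the RP sarcomas. The proximal interval, chr2:175175749-176706853, was the same in all 4 tumours, and the distal interval was the same in 3 of them; the raised segment between them had 63 markers. Zfp931 and Zfp971, zinc finger genes, lay in the distal interval in all 4. The break in RP thymic lymphoma 5 was a smaller step of -0.44 beside a segment of 2 markers.

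Chromosome 4 had 3 loci, broken mainly in thymic lymphomas of both genotypes, and at most of the breaks the locus was lower than its surroundings. The Mup locus (chr4:60068164-62523943), where 22 of 34 protein-coding genes encode major urinary proteins, which carry pheromones in urine, was broken in 3 AD and 3 RP thymic lymphomas and in 0 sarcomas. Its level relative to the rest of chromosome 4 ran from -0.78 to 0.00 (median -0.05) in AD and from -0.55 to 0.00 (median -0.01) in RP thymic lymphomas, while sarcomas ran from -0.08 to 0.00. Mup7 lay in the intervals of 5 tumours and Mup5 in those of 3. The Skint locus (chr4:112029406-115414010) was broken in 2 AD and 2 RP thymic lymphomas, and was also the only one of the 8 still broken in its 4 tumours when segments had to hold at least 100 markers. These 4 tumours stood between -0.50 and -0.27 relative to the rest of chromosome 4. AD thymic lymphoma 4, with 0 breakpoints at this locus, was lower still, at -0.59. Skint1, which selects a skin-resident class of gamma-delta T cells in the thymus, and Skint4 lay in the intervals of all 4 broken tumours. The distal edge reached Tal1, a transcription factor gene of T-cell leukaemia, in RP thymic lymphoma 1, where the log2 copy ratio stepped from -0.36 to 0.45 over an interval of 1169 kb. The distal Zfp locus (chr4:145303077-147828669), 16 of whose 20 protein-coding genes are Zfp genes, was broken in 2 AD and 3 RP thymic lymphomas and in RP sarcoma 2. In the 5 thymic lymphomas the locus was lower than the rest of chromosome 4, between -0.37 and -0.21, and in RP sarcoma 2 it was higher, at 0.47. Zfp933 lay in the intervals of all 6 tumours and Zfp984 in those of 5, and the interval chr4:147761220-147825730 was the same in 5.

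The remaining 3 loci were also broken in thymic lymphomas and in 0 sarcomas. On chromosome 7, chr7:33287489-33518643, with 4 secretoglobin genes (small secreted proteins, among them Scgb1b20 and Scgb2b21), was broken in AD thymic lymphomas 1, 5 and 7. The locus chr7:37996686-39534114, with Pop4, a subunit of RNase P, Plekhf1 and gene models such as Gm6818, was broken in AD thymic lymphomas 3 and 7 and RP thymic lymphoma 6, which stood at -0.36, -1.14 and -0.24 relative to the rest of the chromosome. The proximal interval in AD thymic lymphoma 7 held Ccne1, the gene of cyclin E1, with a step from -0.24 to -1.71. On chromosome 12, chr12:20321295-22552129, which holds 14 protein-coding genes, mostly gene models such as Gm10476, was broken in AD thymic lymphoma 5 and in RP thymic lymphomas 1, 2, 5 and 7. In those RP tumours the lost island lay just distal to it, at log2 copy ratios of -1.74, -1.17, -1.01 and -0.73, each a segment of 26, 8, 6 and 10 markers. In AD thymic lymphoma 5 the interval spanned 2126 kb, at the distal edge of a different island, chr12:18409491-20321295.

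**Figure D3:**
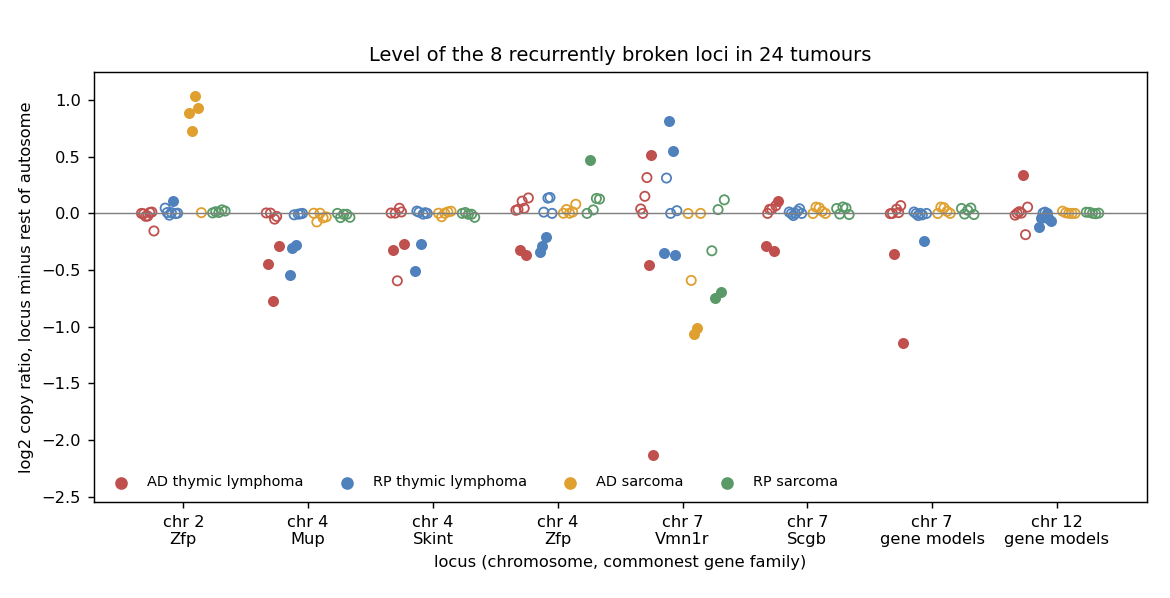
Log2 copy ratio of each recurrently broken locus minus the mean of the rest of its autosome, in 24 tumours (1 point per tumour, coloured by group; filled where the tumour has a breakpoint at the locus, open where it has none). AD sarcomas 1 to 4 stand between 0.73 and 1.03 at the chromosome 2 Zfp locus, and the chromosome 7 Vmn1r locus spreads from -2.13 to 0.81.

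Whether these steps were acquired by the tumours, inherited through the mixed background or left by the processing cannot be told apart. The DNA each tumour was compared with is not given in the sources used here. At 89.9% of these breakpoints, at least 1 flanking segment had fewer than 100 markers. In the tumours whose animals' ears were also sequenced, the breakpoints at the 8 loci numbered 1 in AD thymic lymphoma 1, 6 in RP thymic lymphoma 4, 0 in AD sarcoma 5 and 0 in RP sarcoma 3. Requiring at least 100 markers in each segment, an alternative chosen after seeing the data, gave 70 breakpoints, which include pairs that became neighbours once other segments were dropped, and 2 windows broken in 3 or more tumours.

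The 110 breakpoints outside the recurrent windows were spread over 17 autosomes and along them, with 26, 21, 17, 24 and 22 in successive stretches when each autosome's segmented length was cut into 5. Several tumours had many on 1 autosome. AD thymic lymphoma 4 had 8 on chromosome 16 and 6 on chromosome 17. On chromosome 16 its copy ratio rose and fell over 45.5 Mb, between -0.91 before the first break and a highest level of 1.22, and the first interval reached Lsamp, a neuronal adhesion gene, where it stepped from -0.91 to 0.57. Its chromosome 17 ran between -0.95 and 0.18. AD thymic lymphoma 5 had 9 on chromosome 12, and the interval chr12:12372746-14149845 held Mycn, an oncogene of the Myc family, with the flanking long segments at -0.03 and 0.31. The level at Mycn itself is not given by these flanks. RP thymic lymphoma 4 had 5 on chromosome 15, with levels from 0.43 to 1.35, and 8 on chromosome 4, of which 6 were at recurrent windows. AD thymic lymphoma 7 (6 on chromosome 7), RP thymic lymphoma 1 (6 on chromosome 4) and RP thymic lymphoma 2 (5 on chromosome 12) had 5, 6 and 1 of these at recurrent windows.

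The 2 largest steps of each group lay outside the recurrent windows in AD thymic lymphomas and RP sarcomas. In AD sarcomas both lay at recurrent windows, as did the step of -1.41 in RP thymic lymphomas. In AD thymic lymphoma 7, the log2 copy ratio fell from 0.73 to -2.74 and returned to 0.79 on chromosome 14, steps of -3.47 and 3.53 around a lost stretch of 1.36 Mb with 154 markers. The stretch covers Trdc, the constant gene of the T-cell receptor delta chain, and its distal interval holds Trac, that of the alpha chain. In RP sarcoma 2, steps of 1.98 and -1.97 on chromosome 15 enclosed a gained segment at 2.22 with 11 markers, whose distal end lies within Myc. The largest steps in AD sarcomas, -1.80 in AD sarcoma 3 and -1.70 in AD sarcoma 4, were proximal edges of the lost Vmn1r segment, and those in RP thymic lymphomas, -1.41 and 1.41 in RP thymic lymphoma 1, bounded the chromosome 12 island. Singled out after the values were seen, AD thymic lymphoma 5 had a segment at 3.35 on chromosome 9 with 132 markers between intervals that reach Pdgfd, a growth factor gene, and Mmp12, a matrix protease gene.

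Few places outside the recurrent windows were shared, and there sharing by 3 or more tumours was excluded by definition. Outside the recurrent windows, RP sarcomas 3 and 5 were broken over the same interval of chromosome 16, chr16:32186375-32233082, between Bex6 and Fbxo45, the latter an adaptor of a ubiquitin ligase. The level there fell from 1.47 to -0.13 in RP sarcoma 3 and from 1.17 to -0.36 in RP sarcoma 5. Gbe1, the glycogen branching enzyme gene, and Robo1, a guidance receptor gene, were each reached in AD thymic lymphoma 4 and RP thymic lymphoma 3, and Grm7, a glutamate receptor gene, in RP thymic lymphomas 1 and 4.

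Genes of 6 lists were then counted in the intervals, where 549 of 20665 protein-coding autosomal genes (2.66%) lay in at least 1 interval. Of 39 long genes of common fragile sites, which break under replication stress, 6 (15.4%) lay in an interval, among them Lsamp in AD thymic lymphoma 4, Dcc and Dab1 in RP thymic lymphoma 4, and Auts2 in RP thymic lymphoma 7. A long gene is more easily reached by an interval, and length was not accounted for. Of 48 T-cell lymphoma genes 3 lay in an interval, Myc in RP sarcoma 2, Mycn in AD thymic lymphoma 5 and Tal1 in RP thymic lymphoma 1. The counts were 1 of 34 sarcoma genes (Ccne1) and 1 of 13 antigen receptor genes (Trac), both in AD thymic lymphoma 7. None of 25 p53 pathway genes and none of 36 genome maintenance and mitosis genes lay in an interval.

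Thymic lymphomas had more breakpoints than sarcomas. AD thymic lymphomas had 7 to 18 breakpoints (median 13) and RP thymic lymphomas 4 to 19 (median 11), with the lowest in RP thymic lymphoma 3 and the highest in RP thymic lymphoma 4. AD sarcomas 1 to 5 had 2, 3, 5, 6 and 0, and RP sarcomas 1 to 5 had 0, 7, 2, 2 and 3. The tumour types overlapped only at the edge, with 10 of 14 thymic lymphomas above the highest sarcoma. The means were 11.4 ± 4.73 (SD, n = 14) and 3 ± 2.36 (n = 10), a difference of 8.36 within genotype (exact permutation test over 627264 regroupings, two-sided p = 0.000115, adjusted over 10 tests p = 0.000574). Broken autosomes numbered 3.86 ± 1.35 and 1.5 ± 1.27 per tumour (difference 2.36, exact permutation p = 0.000781, adjusted p = 0.0026). With the breakpoints at recurrent windows left out, the means were 7.14 and 1 (difference 6.14, exact permutation adjusted p = 0.00214). Those windows were chosen from the same breakpoints, and held 59 of 159 in thymic lymphomas and 20 of 30 in sarcomas.

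Both calls were lost when only larger or better-measured steps counted. With a step of 0.5 the breakpoint means were 5.57 and 2.5 (exact permutation adjusted p = 0.0835), and with at least 100 markers per segment 4.43 and 0.8 (adjusted p = 0.0688); over all alternatives other than leaving out a tumour, the adjusted p ran from 0.000247 to 0.0835. Segments under 1 Mb, which the rule sets aside, numbered 44 to 341 in thymic lymphomas and 17 to 62 in sarcomas, with 210 and 341 in AD thymic lymphomas 6 and 7, and their part in the difference was not tested. Without those 2 tumours the difference was 8.59. Autosomal marker totals also separated the tumour types, at 204845 to 204922 in thymic lymphomas and 205073 to 205076 in sarcomas, so any difference in processing between them cannot be told apart from tumour type. The totals separated the genotypes as well, at 204845 to 204849 in AD and 204917 to 204922 in RP thymic lymphomas and at 205075 to 205076 in AD and 205073 to 205074 in RP sarcomas, so the same holds for the comparison of AD with RP.

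**Figure D4:**
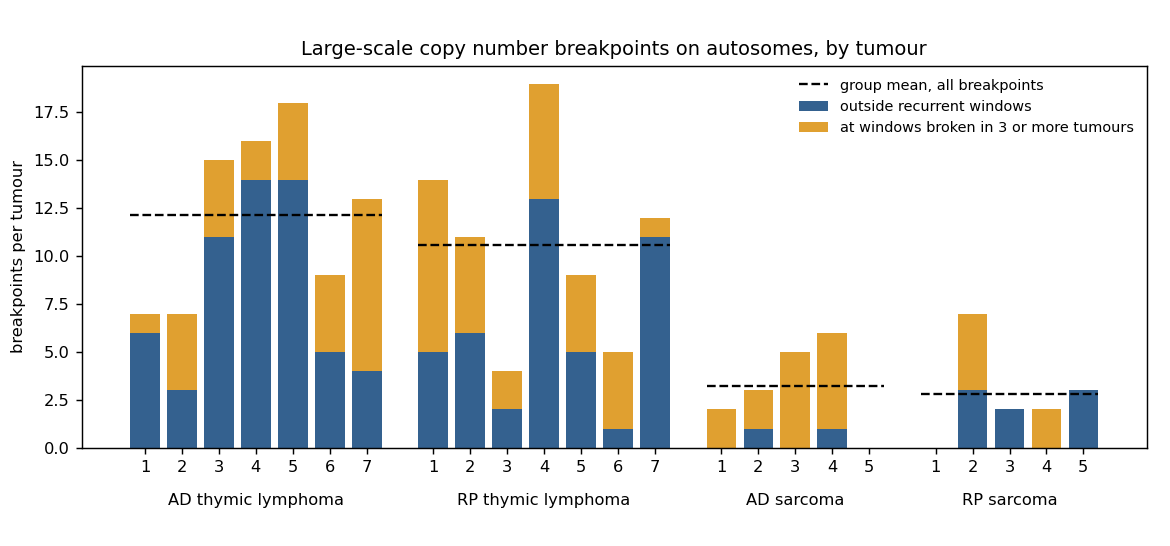
Breakpoints per tumour (bars, stacked by position at or outside windows broken in 3 or more tumours), with the mean of each group as a dashed line. Group means are 12.1 and 10.6 in AD and RP thymic lymphomas and 3.20 and 2.80 in AD and RP sarcomas; AD sarcoma 5 and RP sarcoma 1 have none.

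Between dimeric and monomeric p53, the comparison named in the study's design, breakpoint counts differed by less than the spread between tumours. In thymic lymphomas the means were 12.1 ± 4.49 in AD and 10.6 ± 5.19 in RP tumours (n = 7 each, difference 1.57, exact permutation p = 0.584, adjusted p = 0.974). With segments of at least 20 markers and any length, the means were 37.4 and 22.3 (difference 15.1, exact permutation adjusted p = 0.0772), and with like neighbours joined the difference was 0.57; these were the extremes over the alternatives other than leaving out a tumour, whose adjusted p ran from 0.0772 to 1. Broken autosomes numbered 3.71 and 4 (difference -0.29, exact permutation p = 0.851). In sarcomas the means were 3.20 ± 2.39 and 2.80 ± 2.59 (n = 5 each, difference 0.40, exact permutation p = 0.913), and broken autosomes numbered 1.60 and 1.40 (exact permutation p = 1). Outside the recurrent windows, AD sarcomas had a mean of 0.40 and RP sarcomas 1.60, so the sign of the sarcoma difference turned (-1.20, exact permutation p = 0.206). Those windows were chosen from these same breakpoints, and held 14 of 16 in AD and 6 of 14 in RP sarcomas. The chromosome 2 windows reached 3 tumours only through AD sarcomas. The turn thus follows in part from the choice, and its p-value is no test of genotype. These p-values do not show that the genotypes are alike, and the smallest p these designs allow is 0.000583 in thymic lymphomas and 0.00794 in sarcomas.

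Changes of a whole autosome without a breakpoint occurred mainly in thymic lymphomas at the cutoff used, by which 80% or more of the segmented length had to lie at 0.3 or above, or at -0.3 or below. Of 456 pairs of a tumour and an autosome, 69 (15.1%) were broken, 42 (9.21%) were lost whole without a breakpoint, 17 (3.73%) were gained whole without one and 328 (71.9%) were neither. AD thymic lymphomas had 0 to 5 such whole changes (median 3), RP thymic lymphomas 1 to 8 (median 5), AD sarcoma 3 had 1, a loss of chromosome 12, and the other 9 sarcomas had 0. All but AD thymic lymphoma 2 of the 14 thymic lymphomas had at least 1. In AD thymic lymphoma 2, chromosomes 4 and 5 were gained over 97.3% and 98.2% of their length but also had breakpoints, so they count as broken. The means were 4.14 ± 2.28 and 0.10 ± 0.32 per thymic lymphoma and sarcoma (difference 4.04, exact permutation p = 3.83e-05, adjusted p = 0.000383). At a cutoff of 0.5 the difference was 0.86 (exact permutation adjusted p = 0.0599, the highest over the alternatives, whose lowest was 0.000247).

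Between AD and RP thymic lymphomas, the number of whole changes without a breakpoint did not pass the adjusted test. The means were 3 ± 1.53 in AD and 5.29 ± 2.43 in RP tumours (n = 7 each, difference -2.29, exact permutation p = 0.0793, adjusted p = 0.198). Losses made up 14 of 21 such changes in AD and 27 of 37 in RP tumours. RP thymic lymphoma 3, with 1 whole change and 4 breakpoints, decided that call: without it the means were 3 and 6 (exact permutation adjusted p = 0.0131), leaving out each tumour in turn gave adjusted p-values from this one up to 0.372, and the other alternatives gave 0.0746 to 1. As a share of altered autosomes, whole changes without a breakpoint were 40.2% ± 19.9 in AD and 54.8% ± 11.3 in RP thymic lymphomas (difference -14.6 points, exact permutation p = 0.104, adjusted p = 0.207). Breaks and whole changes also met on the same autosome: RP thymic lymphoma 2 had 3 autosomes that were both broken and changed whole, and these count as broken.

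**Figure D5:**
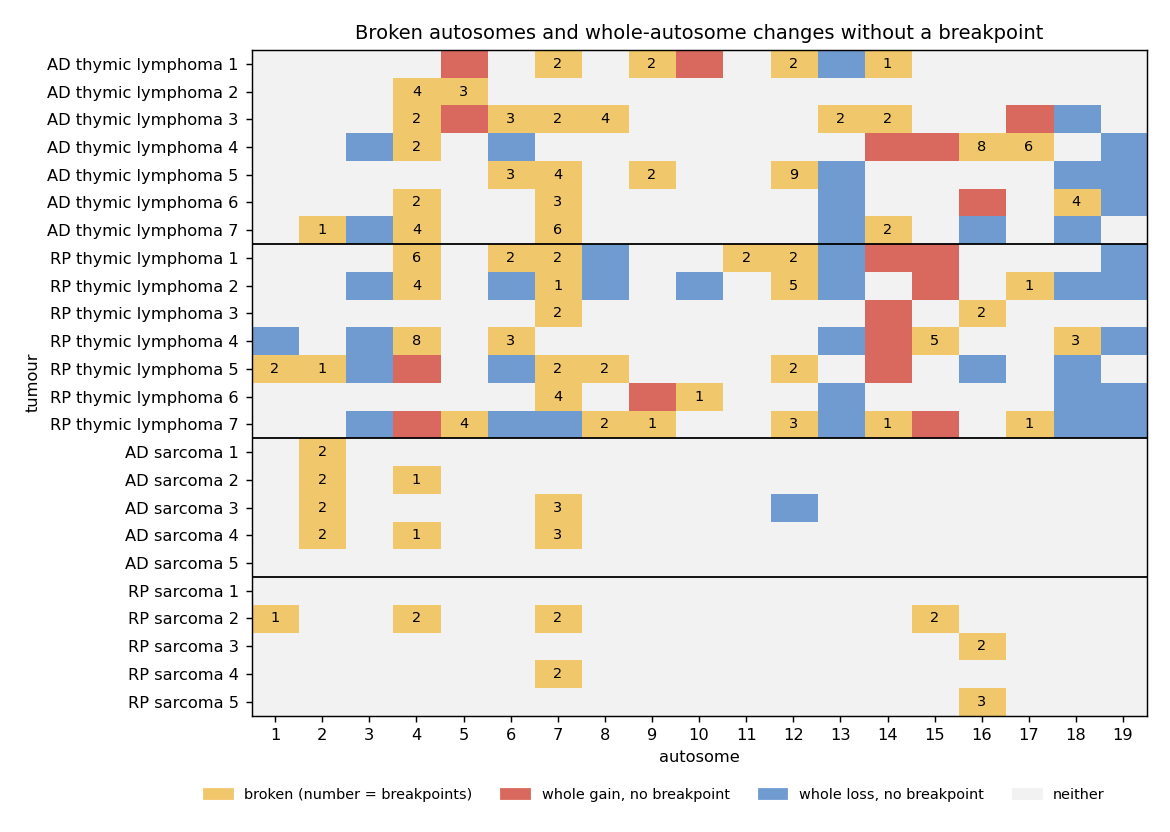
The 19 autosomes (x) of 24 tumours (y), coloured as broken (with the number of breakpoints), gained whole without a breakpoint, lost whole without a breakpoint, or neither. Chromosomes 4 and 7 are broken in 11 and 14 tumours, while 13, 18 and 19 are lost whole without a breakpoint in 9, 7 and 8 tumours, all thymic lymphomas.

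Breakpoints and whole changes without one were each most frequent on a few autosomes; the 2 counts exclude each other within a tumour, since a whole change is counted only on an unbroken autosome. Chromosome 7 had 38 breakpoints in 14 tumours and chromosome 4 had 36 in 11, of which 33 and 32 lay at recurrent windows. They were followed by chromosomes 12 (23 breakpoints, 5 at recurrent windows), 16 (15) and 6 (11), the last 2 with none at recurrent windows. Whole losses without a breakpoint were most frequent on chromosomes 13 (9 tumours), 19 (8), 18 (7) and 3 (6), and whole gains on chromosome 14 (5). Chromosomes 3 and 19 had 0 breakpoints in the 24 tumours, and chromosome 13 had 2, both in AD thymic lymphoma 3. Other autosomes had both kinds: chromosome 18 had 7 breakpoints and chromosome 14 had 6, and chromosome 6 was lost whole without a breakpoint in 4 tumours. Chromosome 4 changed whole in 2 tumours without a breakpoint and in 4 that were also broken there. Tested one by one, 0 of 19 autosomes (0%) differed in breakpoint count between AD and RP thymic lymphomas by the adjusted exact permutation test, and 0 had an unadjusted p under 0.05. Between AD and RP sarcomas 0 of 19 passed (0%) and 1 had an unadjusted p under 0.05 (5.26%), chromosome 2, with 8 breakpoints in AD and 0 in RP sarcomas (exact permutation p = 0.0476, adjusted p = 0.905). Between tumour types 0 of 19 passed (0%) and 3 had an unadjusted p under 0.05 (15.8%), chromosomes 2, 4 and 12.

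The number of breakpoints was also set against the number of segments under 1 Mb, which the rule does not use, in each tumour type. Over 14 thymic lymphomas Pearson's r was 0.17 (permutation p = 0.585, adjusted over the 2 tumour types p = 0.585) and Spearman's rho 0.59 (permutation p = 0.0283, adjusted p = 0.0566). Without AD thymic lymphomas 6 and 7, the 2 farthest from the median number of short segments, r was 0.55 (permutation p = 0.0357); within AD and RP tumours it was 0.11 and 0.55. Over 10 sarcomas r was 0.58 and rho 0.59 (permutation p = 0.0804 and 0.0755, adjusted p = 0.161 and 0.0755). That relation rested on AD sarcoma 5 and RP sarcoma 2, without which r was 0.07 (permutation p = 0.865).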

How the data were processed

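Exome sequencing sampled DNA copy number at capture targets in 24 mouse tumours. The build was GRCm38, and GATK 4.1.0.0, Trim Galore 0.6.5 and BWA 0.7.17 were used, in roles not stated, per the submitters' processing notes. The authors deposited 1 table of segments per tumour, with the position, marker number and mean of each segment, per the file headers. The deposited segment mean was read as a log2 copy ratio, from its negative values. Information on its base, the comparison DNA, the segmentation settings and any purity correction is not given in the sources used here. Admixed normal cells draw log2 values towards 0, so a step of 0.3 is harder to reach in a mixed tumour. Read depth is unknown, so no counting interval is given, and markers are not reads.

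Groups were read from the titles, and replicates are numbered in label order. The 24 tables held 3357 autosomal segments, of which 1730 under 1 Mb (51.5%) were dropped. Breakpoints were counted per tumour, autosome and 1 Mb window; a window is broken when the interval reaches it, and broken windows at most 1 window apart were joined into a locus. Differences between group means were tested by exact permutation over tumours, two-sided (3432 splits of 7 against 7, 252 of 5 against 5, and 627264 regroupings within genotype for tumour type). P-values were adjusted by Benjamini-Hochberg over 10 per-tumour tests or over 19 autosomes, at 0.05, and correlations used 100000 permutations. The code was tested on simulated profiles. Python 3.11.15, numpy 2.4.6, pandas 2.3.3, scipy 1.17.1 and matplotlib 3.10.9 were used. Genes and promoters came from RefSeq tables of GRCm38.p6, of which 16457 of 20665 protein-coding autosomal genes had a promoter entry; the sequence of the breakpoint intervals was not used here.

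The members, the 6 gene lists (196 symbols) and the tests were chosen with earlier results of these data known. Named were the genes nearest the middle of each recurrent locus and those in the intervals of most tumours, list genes in an interval, the tumours with the highest and lowest counts or 5 or more breakpoints on 1 autosome, the 2 largest steps of each group, the 3 steps on each side of the threshold, and the 5 autosomes with most breakpoints and most whole changes. Alternatives covered the step, the segment length and markers, joining of like neighbours, interval width, a linear scale, the whole-autosome rule, centring, window size and leaving out each tumour. Some genes in breakpoint intervals are not reported here.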

Additional observations from a re-analysis of the deposited data

Results flagged for a closer look

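In groups of 5 or 7 tumours, single values stood apart from the rest of their group by Dixon's test, which chance alone flags in about 1 group in 20. That rate is for continuous values, and several values below are small counts with ties, for which it does not hold. AD thymic lymphoma 7 was the lowest of its group at the chromosome 2 Zfp locus (-0.16 relative to the rest of the autosome), at the Vmn1r locus (-2.13) and at the chromosome 7 Pop4 locus (-1.14), and it had the most breakpoints at recurrent windows, 9. AD thymic lymphoma 2 had 0 whole-autosome changes without a breakpoint, where the others of its group had 3 to 5. It had 2 autosomes that changed whole and were also broken, which the rule counts as broken. RP thymic lymphoma 6 was the lowest of its group at the Pop4 locus, at -0.24.

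Among sarcomas, AD sarcoma 3 was the only one with a whole-autosome change without a breakpoint, 1, which made 33.3% of its altered autosomes. That share had a value in 4 AD sarcomas. AD sarcoma 1 stood above the other AD sarcomas at the chromosome 12 locus, at 0.019. RP sarcoma 2 had 4 broken autosomes, where the others had 0 or 1, and it was the highest RP sarcoma at the distal chromosome 4 Zfp locus, at 0.47.

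Chromosome X, which the counts above leave out, had 38 breakpoints by the same rule in 16 of 24 tumours.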

How the results depend on the processing

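The higher breakpoint count of thymic lymphomas kept its direction under every alternative run, with a difference from 3.07 to 18.7, and passed in all but 2. With a step of 0.5 the differences were 3.07 breakpoints and 1.09 broken autosomes, and with at least 100 markers per segment 3.63 and 1.36, none of which passed; the whole-autosome difference was 0.86 at a cutoff of 0.5. Recurrent windows numbered 9 with a step of 0.5, 33 with segments from 0.5 Mb or of at least 20 markers of any length, 4 with segments from 2 Mb, 2 with at least 100 markers and 13 to 17 when 1 tumour was left out. Segments of at least 20 markers gave 2 autosomes that differed between tumour types. The correlation was then with the segments each alternative dropped. With those under 20 markers, of any length, it was 0.59 over thymic lymphomas (permutation adjusted p = 0.0359). With those under 0.5 Mb it was 0.77 over sarcomas (permutation adjusted p = 0.0159).

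AD minus RP differences in thymic lymphoma breakpoints (0.48 to 15.1) kept their sign, while others changed it without passing. In thymic lymphomas, broken autosomes came to 0.57 (step 0.5, and at least 20 markers), 0.14 (2 Mb) and 0.86 (at least 100 markers), and to -0.67 to 0.048 leaving out 1 tumour. The share of altered autosomes changed whole came to 0.63 points after centring. In sarcomas, breakpoints came to -1 (0.5 Mb), -0.80 (2 Mb, and at least 100 markers), -1.60 (at least 20 markers) and -1.20 (recurrent windows left out), and to -0.30 to 1.45 leaving out 1 tumour. Sarcoma broken autosomes came to -0.80 (0.5 Mb, and at least 20 markers), -0.40 (2 Mb, and recurrent windows left out) and -0.20 (at least 100 markers), and to -0.15 to 0.85 leaving out 1 tumour. Whole changes in thymic lymphomas ran from -3 to -1.79 leaving out 1 tumour, passing only without RP thymic lymphoma 3, and from -2.86 to 0 (cutoff 0.5) under the other alternatives; in sarcomas they ran from 0 to 2.4 (cutoff 0.2), and none passed. The cause of these changes was not tested. No paired analysis was run, since each tumour has an identifier of its own in the titles and the ear samples were not analysed. Alternatives on markers per segment, recurrent windows and AD thymic lymphomas 6 and 7 were chosen after seeing the data.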
